A study of Mus musculus with 6 samples.

Results

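Collagen chain genes are the 44 genes, of 32285 in the gene list, whose symbol is Col followed by a number, the letter a and another number. The rule used names only and no measured value. Their transcripts were counted as UMIs (unique molecular identifiers, each of which marks 1 captured transcript molecule) and summed per sample over fibroblast-like, endothelial-like, melanoma-like and macrophage-like cells. The single-cell RNA-Seq libraries were made from cells selected for CD45, an antigen of leukocytes, with magnetic beads from thawed suspensions of B16-F10 tumors after removal of dead cells. B16-F10 is an established mouse melanoma line, grown here in female C57BL/6 mice of 6 to 10 weeks. All mice received 150 μg of αPD-1 antibody, an immune checkpoint inhibitor, 3 times per week from day 7. In the αPD-1 group (3 samples, αPD-1 alone), mice were also injected with vehicle (5% DMSO in PBS), and in the αPD-1 + corin group (3 samples) with 200 μg of corin, daily in both cases and from day 6. Corin inhibits the CoREST complex, a chromatin regulator that holds the demethylase LSD1 and the deacetylase HDAC1. Each group had 10 mice, but no label ties a sample to its mice, so p-values measure only the spread between these samples. Tumors without αPD-1 were not analysed here.

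Collagens are secreted or membrane-bound proteins in which alpha chains, each the product of its own gene, wind into a triple helix. Fibrillar collagens (types I, III and V among them) form the load-bearing fibers of connective tissue, type IV collagen forms the network of basement membranes under endothelium and epithelium, and FACIT collagens attach to the surface of fibrils. In tumors, fibroblasts are known as the main source of fibrillar collagen, and pericytes and endothelial cells lay down the basement membrane of vessels. By structural class, the 44 genes were 11 fibrillar, 6 basement membrane network, 7 beaded filament and related (type VI and Col28a1), 9 FACIT, 3 hexagonal network, 4 transmembrane and 2 multiplexin genes, with Col7a1 of anchoring fibrils and Col26a1 as the remaining ones.

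The 6 libraries held 6433 to 13228 barcodes and 52281422 to 84276739 UMIs each, with median UMI counts of 2400.0 to 3114 per barcode. After filters, 28865 cells remained in 26 clusters, of which 13092 cells were in the 4 classes. Any pair of libraries shared 10 to 32 barcodes. Clusters were named from marker lists, with collagen and marker genes left out of the clustering, and every name means only that a cluster resembles the type. The fibroblast-like class was 1 cluster led by Dcn, Mfap5, Tnc, Timp1 and Lox. The endothelial-like class was also 1 cluster, in which the mural genes Rgs5 and Acta2 were among the leading genes beside Plvap and Egfl7 of endothelium. Melanoma-like cells came from 3 clusters and macrophage-like cells from 6, and 5 of the 6 macrophage-like and 1 of the 3 melanoma-like clusters had no marker of the class among their 10 leading genes, so their names rest on 5 or more markers raised in the cluster. One macrophage-like cluster, led by Ppbp, Ccl24 and Arg1, held 28.8% and 28.0% of the class in αPD-1 + corin replicates 1 and 2 and at most 4.27% in the other samples. Since the cells were selected for CD45, its gene Ptprc was compared among the classes. Ptprc was at 402 to 559 CPM in macrophage-like cells, 18.8 to 62.7 CPM in fibroblast-like cells, 14.0 to 92.5 CPM in endothelial-like cells and 7.86 to 55.9 CPM in melanoma-like cells, where CPM is UMIs of a gene per 1000000 UMIs of the class in that sample. The numbers of fibroblast-like, endothelial-like and melanoma-like cells depend on that selection, which was made for another cell type.

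Collagen transcripts were concentrated in fibroblast-like cells. In these cells the 44 genes made up 4.31, 4.52 and 4.84% of all UMIs under αPD-1 alone (replicates 1 to 3) and 4.63, 3.69 and 4.59% under αPD-1 + corin. In endothelial-like cells they made up 1.80, 1.15 and 1.37% against 1.27, 1.86 and 1.02%. The ranges of these classes did not meet, and within each class the groups overlapped. Melanoma-like cells had 0.0276, 0.0173 and 0.0152% under αPD-1 alone and 0.0170, 0.0170 and 0.0184% under αPD-1 + corin. Macrophage-like cells had 0.00320, 0.00525 and 0.00227% against 0.00370, 0.00266 and 0.00287%. T-, B- and NK-like cells, which are not known as sources of collagen, had 0.00310, 0.00183 and 0.00240% against 0.00643, 0.00228 and 0.00440%. The macrophage-like level overlapped that of lymphocytes. Of the 6 macrophage-like clusters, the one led by Camk1d, Gphn and Cmss1 was above lymphocytes in 6 of 6 samples and the others in 1 to 3. Whether free RNA gave these UMIs was not tested. Melanoma-like cells were above both classes in every sample.

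**Figure D1:**
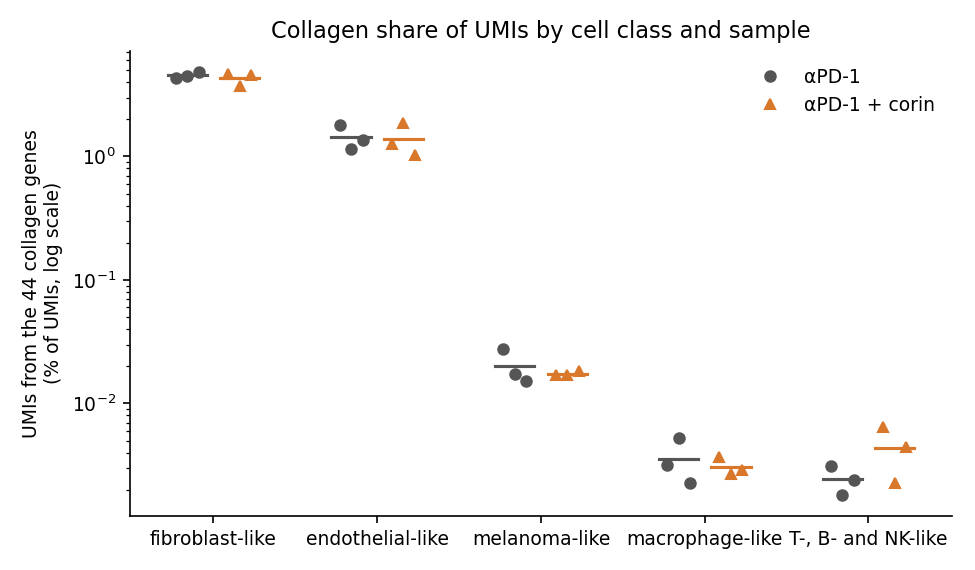
Percent of UMIs from the 44 collagen genes (log scale) in each cell class, with 1 point per sample and a bar at the group mean (n = 3). Fibroblast-like cells lie between 3.69% and 4.84%, above endothelial-like cells, and within each class the groups overlap.

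Of all collagen UMIs in the cells kept, fibroblast-like cells held 82.9% to 97.6% per sample and endothelial-like cells 1.69% to 14.3%. Melanoma-like cells held 0.297% to 1.07% and macrophage-like cells 0.304% to 1.47%. The same concentration was seen cell by cell. At least 10 collagen UMIs were found in 96.2% to 100.0% of fibroblast-like cells per sample and in 88.9% to 100.0% of endothelial-like cells. In contrast, 87.4% to 92.3% of macrophage-like cells and 91.4% to 94.6% of T-, B- and NK-like cells had no collagen UMI at all. These classes differ in depth. The median UMI count was 7096 to 9300.0 per cell in fibroblast-like cells and 3166 to 4795 in macrophage-like cells.

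The endothelial-like cluster was divided by its markers into an endothelial part and a mural part, with cells that favored neither left out. The 44 genes made up 0.781, 0.424 and 0.736% of UMIs in the endothelial part of the αPD-1 samples and 0.682, 0.647 and 0.591% in that of the αPD-1 + corin samples. In the mural part they made up 3.33, 2.66 and 2.44% against 2.23, 3.02 and 1.65%. Collagen was thus higher in the mural part in every sample, on 4 to 16 cells per sample.

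All 44 genes had at least 1 UMI in the cells kept, and 28 had at least 100. Of these 28, the mean level was highest in fibroblast-like cells for 21 genes, in melanoma-like cells for 4 and in endothelial-like cells for 3. Without the upper limit on genes per cell, 35 genes had 100 UMIs and these counts were 21, 6 and 8. Among the 28, the order held in all 6 samples for 13 of the 21, for 1 of the 4 and for all of the 3. The 16 genes under 100 UMIs include Col2a1 and Col10a1, known from cartilage, and Col17a1, known from epithelium. Since the 5′ assay counts 1 end of each molecule, levels were compared between genes without division by length.

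**Figure D2:**
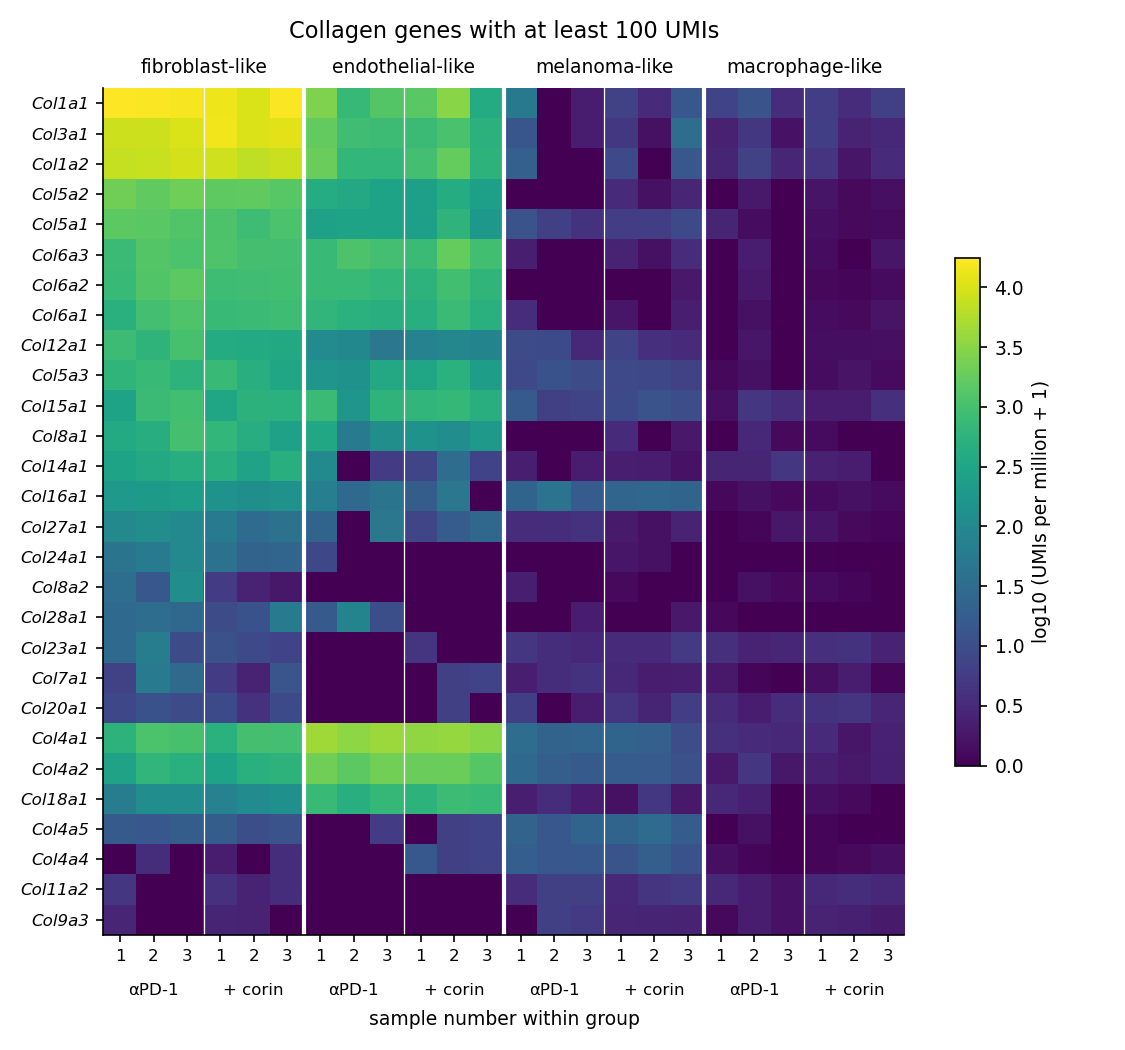
Levels of the 28 collagen genes with at least 100 UMIs, as log10 (CPM + 1), in each of the 6 samples of the 4 cell classes. Fibrillar genes other than Col11a2 have their highest mean in fibroblast-like cells, Col4a1, Col4a2 and Col18a1 in endothelial-like cells, and Col4a4 and Col4a5 in melanoma-like cells.

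Fibrillar genes made up 80.7% to 88.3% of the collagen UMIs of fibroblast-like cells. Col1a1 and Col1a2, the chains of type I collagen, had 10053 to 17763 and 6988 to 9283 CPM over the 6 samples, and Col3a1, the chain of type III collagen, had 8316 to 14345 CPM. The level of Col1a1 and that of Col3a1 overlapped across samples, as did those of Col3a1 and Col1a2. Fibroblast-like cells held 97.8%, 97.8% and 98.6% of the UMIs of Col1a1, Col1a2 and Col3a1. Next came the type V genes Col5a2 (1386 to 2139 CPM) and Col5a1 (859.8 to 1512 CPM), whose product is known to start fibrils of type I collagen. Col3a1 (chr1:45350698-45395840, GRCm39) and Col5a2 (chr1:45412554-45542442) lie next to each other on opposite strands.

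Type IV genes showed another pattern. Col4a1 had 3062 to 4342 CPM in endothelial-like cells and 517 to 1101 CPM in fibroblast-like cells, and Col4a2 had 1362 to 2222 and 276 to 624 CPM. The 2 genes lie head to head at chr8:11248423-11362826 and chr8:11362471-11499287 (GRCm39). Fibroblast-like cells, 985 in number against 169 endothelial-like cells, held 54.6% of Col4a1 UMIs and 55.3% of Col4a2 UMIs, against 41.2% and 39.0% in endothelial-like cells. Col18a1, a proteoglycan of vessel basement membranes and the parent of endostatin, was likewise highest in endothelial-like cells (484 to 807 CPM, against 60.6 to 136 CPM in fibroblast-like cells). Its relative Col15a1 overlapped between both classes, at 166 to 780.0 and 289 to 927 CPM. Of the transmembrane genes, Col13a1 had 70.8% of its 65 UMIs in endothelial-like cells.

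Melanoma-like cells had low levels of a few chains. The leading 3 by mean level were Col16a1 (16.1 to 39.9 CPM), Col4a1 (9.06 to 31.5 CPM) and Col4a5 (13.3 to 30.1 CPM). Col4a5, a minor type IV chain encoded on the X chromosome (chrX:140258354-140472231), was the only one of the 28 genes highest in this class in all 6 samples, and 63.2% of its UMIs were found there. Col4a4 had 78.6% of its 182 UMIs in melanoma-like cells, at 10.9 to 18.2 CPM, against 0 to 2.65 CPM in fibroblast-like and 0 to 0.495 CPM in macrophage-like cells. It was highest in melanoma-like cells in 5 of the 6 samples. In endothelial-like cells, with 6 UMIs of Col4a4 in all, the highest sample was above the lowest melanoma-like sample. Basement membrane genes made up 25.7% to 49.5% of the collagen UMIs of this class. With the upper limit of 4000 genes per cell 1882 melanoma-like cells were found, and without it 7280.

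In macrophage-like cells the leading 3 were Col1a1 (2.42 to 11.4 CPM), Col1a2 (0.828 to 5.81 CPM) and Col3a1 (0.605 to 5.05 CPM), the genes that lead in fibroblast-like cells. In T-, B- and NK-like cells Col1a1 was at 1.36 to 15.4 CPM. Over all 6 samples the UMI ratio of Col1a1 to Col1a2 was 1.85 in macrophage-like cells and 1.70 in fibroblast-like cells. For Col1a2 to Col3a1 it was 0.887 and 0.667, and for Col1a1 to Col3a1 it was 1.64 and 1.13. The lymphocyte ratios were 2.77 for Col1a1 to Col1a2, 1.17 for Col1a2 to Col3a1 and 3.24 for Col1a1 to Col3a1. They rest on 191, 69 and 59 UMIs of Col1a1, Col1a2 and Col3a1. Differences of these ratios between classes were not tested.

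The sequence upstream of 4 fibrillar genes is shown because their levels in fibroblast-like cells are compared below: Col1a2 and Col3a1, whose ratio separated the groups, and Col27a1 and Col24a1, with the largest differences among the fibrillar genes that could be tested. Each is the 150 bases before the transcription start in RefSeq (GRCm38.p6, plus strand), 5′ to 3′, at chr6:4505468-4505617, chr1:45311388-45311537, chr4:63215262-63215411 and chr3:145292322-145292471. Capitals mark motifs, searched on both strands and without overlap in these sequences. The letters CCAAT stand for the binding motif of the factor NF-Y. The letters TATAAA stand for the core promoter element of that name. The letters GGGCGG stand for the motif known as GC box.
Col1a2: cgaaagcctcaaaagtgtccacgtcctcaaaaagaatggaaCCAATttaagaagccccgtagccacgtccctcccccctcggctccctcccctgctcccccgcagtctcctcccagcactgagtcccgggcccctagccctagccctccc
Col3a1: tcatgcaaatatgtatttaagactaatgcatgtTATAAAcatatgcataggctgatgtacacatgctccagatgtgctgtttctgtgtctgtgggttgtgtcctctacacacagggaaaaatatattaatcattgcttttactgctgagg
Col27a1: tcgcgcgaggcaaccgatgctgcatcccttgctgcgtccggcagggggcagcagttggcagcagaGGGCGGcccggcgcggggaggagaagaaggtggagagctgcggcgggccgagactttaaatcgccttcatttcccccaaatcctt
Col24a1: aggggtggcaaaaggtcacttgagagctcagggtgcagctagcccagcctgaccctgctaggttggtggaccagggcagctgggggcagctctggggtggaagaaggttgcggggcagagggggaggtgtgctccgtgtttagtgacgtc
Col1a2 holds the first of these motifs, 109 to 105 bases before its start. Col3a1 holds the second, 117 to 112 bases before its start. Col27a1 holds the third, 85 to 80 bases before its start, and Col24a1 none of the 3. Among all 32851 starts in the table, 24.5% hold CCAAT, 7.57% TATAAA and 28.6% GGGCGG within 150 bases. For 35 of the 44 genes the table has 1 start or more, 38 in all. In the 250 bases before these starts, CCAAT was found in 13 of 38 (all starts 33.8%), TATAAA in 5 (all starts 12.4%) and GGGCGG in 22 (all starts 32.7%). A match is a description of letters and not a binding site.

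The effect of adding corin was then compared class by class. Fibroblast-like cells numbered 62, 37 and 48 under αPD-1 alone and 613, 79 and 146 under αPD-1 + corin. This was 1.18% ± 0.214 of the cells kept (SD, n = 3) against 4.30% ± 3.08 (SD, n = 3). The groups did not overlap (two-sided exact permutation test, p = 0.1, the smallest that 3 samples against 3 allow, and 0.133 adjusted over 4 classes). Without αPD-1 + corin replicate 1, the difference was 1.37 percentage points in place of 3.12. The collagen share of fibroblast UMIs averaged 4.56% ± 0.266 and 4.30% ± 0.532 (SD, n = 3), with overlapping samples (exact permutation test, p = 0.7). Without αPD-1 + corin replicate 2, the difference between the means turned from -0.256 to 0.0505 percentage points.

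Over all cells kept, collagen genes made up 0.144, 0.111 and 0.123% of UMIs under αPD-1 alone and 0.660, 0.139 and 0.248% under αPD-1 + corin. These groups overlapped (exact permutation test, p = 0.2). Over all deposited barcodes the shares were 0.110, 0.130 and 0.0797% against 0.480, 0.180 and 0.144%, without overlap (p = 0.1, exact). In αPD-1 + corin replicate 1, which had the most fibroblast-like cells, the share was highest in both counts. Without it, the difference over the cells kept was 0.0674 in place of 0.223 percentage points. In such a total over a sample, a change in cell number and a change in RNA per cell cannot be told apart.

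Of the 6882 genes that passed the filter on low counts in fibroblast-like cells, 150 (2.18%) passed an adjusted p of 0.05 in edgeR's quasi-likelihood test with Benjamini-Hochberg adjustment. Of the 44 collagen genes, 20 could be tested and 1 passed, Col27a1. It fell. Of all genes tested, 1.15% fell and 1.03% rose. Among the 20, 17 log2 fold changes were below 0 and 3 above it, with a median of -0.33. Over all genes tested the median was -0.01 and 50.4% were below 0. For 7 of the 20, no sample of one group lay within the CPM range of the other, of which 6 were lower and 1 higher, against 25.5% of all genes tested. At an unadjusted p of 0.05, 4 of the 20 and 1606 genes in all (23.3%) passed.

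**Figure D3:**
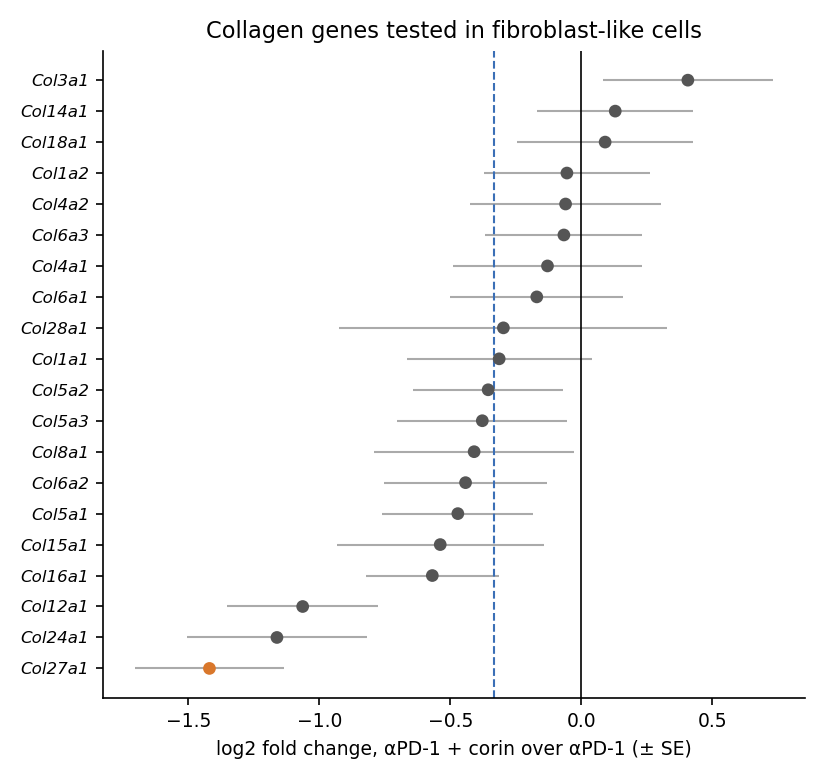
Log2 fold change (αPD-1 + corin over αPD-1) with its standard error for the 20 collagen genes tested in fibroblast-like cells (3 samples a group). The orange point, Col27a1, passed the adjusted p threshold, and the dashed line marks the median of the 20 at -0.33.

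Col27a1, a fibrillar collagen known from developing cartilage, was at 97.4, 127 and 99.8 under αPD-1 alone and 53.2, 29.7 and 36.8 under αPD-1 + corin (CPM). Every αPD-1 sample was above every αPD-1 + corin sample. The log2 fold change was -1.42 ± 0.283 (SE, adjusted p = 0.0285). The call did not hold without αPD-1 replicate 1 (adjusted p = 0.0860), replicate 2 (0.134) or replicate 3 (0.0655), without αPD-1 + corin replicate 2 (0.116), or without the upper limit on genes per cell, where the log2 fold change was -0.77 (adjusted p = 0.186). In each of these fits the direction was the same.

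UMIs of Col27a1 were found in 46.8, 56.8 and 39.6% of fibroblast-like cells under αPD-1 alone and 25.8, 13.9 and 15.8% under αPD-1 + corin. In T-, B- and NK-like cells, with a median of 1841 to 3427 UMIs per cell, the share was 0.273% to 0.833%. The shares in fibroblast-like cells did not overlap between the groups, whose median depths were 7377 to 9300.0 UMIs and 7096 to 7392 UMIs per cell. After each cell was thinned to 1000 UMIs (1 shallower cell was left out), the shares were 11.5, 8.11 and 4.17% against 4.40, 1.27 and 3.42%, which overlapped.

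Col24a1, a fibrillar gene known from bone, was at 42.3, 52.9 and 99.8 under αPD-1 alone and 37.4, 21.9 and 23.6 under αPD-1 + corin (CPM). Its groups did not overlap either, with a log2 fold change of -1.16 ± 0.342 (SE) that did not pass (adjusted p = 0.0867). The third of the larger differences was that of Col12a1, a FACIT collagen of type I fibrils in tendon and stroma, at 823, 577 and 1044 under αPD-1 alone and 418, 388 and 373 under αPD-1 + corin (CPM). The αPD-1 + corin samples lay close together and below all αPD-1 samples. The log2 fold change was -1.06 ± 0.289 (SE, adjusted p = 0.0664). It passed in DESeq2 (adjusted p = 0.00944), without the upper limit on genes per cell (0.0205) and without αPD-1 + corin replicate 3 (0.0374).

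**Figure D4:**
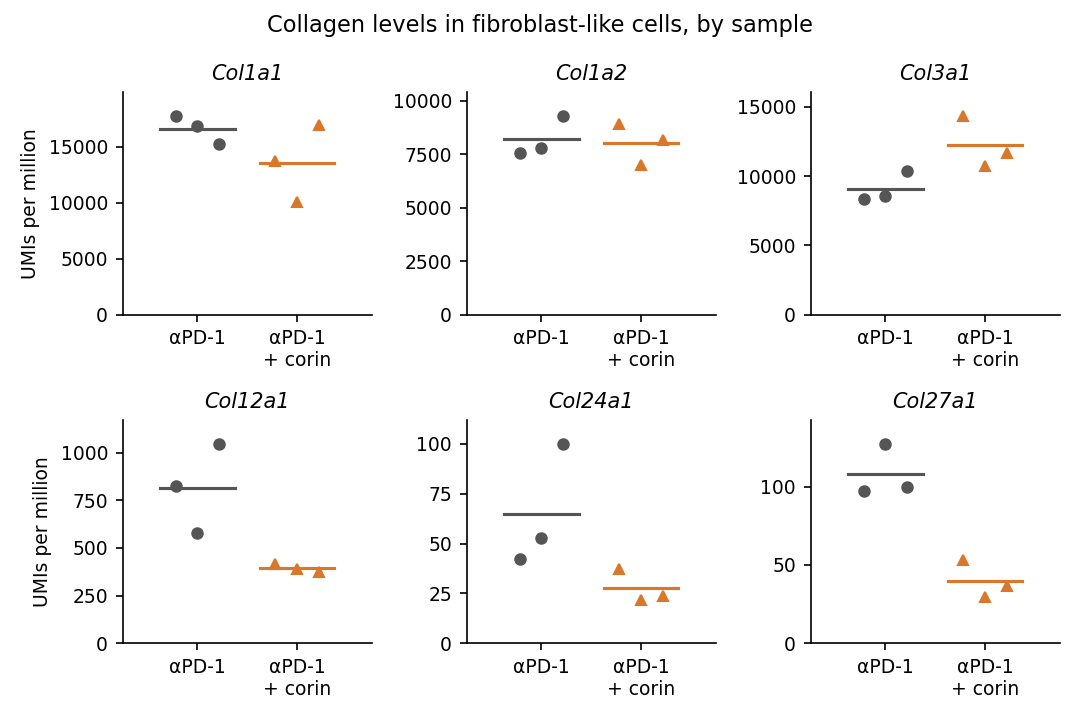
CPM of 6 collagen genes in fibroblast-like cells, with 1 point per sample and a bar at the group mean (n = 3). Col12a1, Col24a1 and Col27a1 are lower in every αPD-1 + corin sample than in any αPD-1 sample, Col3a1 is higher, and Col1a1 and Col1a2 overlap.

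Of the type I and type III chains, Col3a1 was at 8316, 8563 and 10378 under αPD-1 alone and 14345, 10708 and 11643 under αPD-1 + corin (CPM), the only tested collagen gene that was higher in every αPD-1 + corin sample. The difference did not pass, with a log2 fold change of 0.41 ± 0.324 (SE, adjusted p = 0.461). Col1a1 was at 17763, 16829 and 15278 under αPD-1 alone and 13738, 10053 and 16984 under αPD-1 + corin (CPM) and overlapped, with a log2 fold change of -0.31 ± 0.352 (adjusted p = 0.608). Col1a2 was at 7555, 7785 and 9283 under αPD-1 alone and 8907, 6988 and 8145 under αPD-1 + corin (CPM), with a log2 fold change of -0.06 ± 0.316 (adjusted p = 0.933).

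Both main chains of type V collagen had lower means with corin, and neither passed. Col5a1 was at 1512, 1461 and 1255 under αPD-1 alone and 1160.3, 859.8 and 1090.4 under αPD-1 + corin (CPM), without overlap, at a log2 fold change of -0.47 ± 0.288 (adjusted p = 0.332). Col5a2 was at 2139, 1654 and 2022 under αPD-1 alone and 1569.6, 1651 and 1386 under αPD-1 + corin (CPM), also without overlap, at -0.36 ± 0.287 (adjusted p = 0.465). The gap for Col5a2 was small, from 1651 in the highest αPD-1 + corin sample to 1654 in the lowest αPD-1 sample. Col5a3 overlapped, at -0.38 ± 0.324.

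Type VI collagen forms beaded filaments near the surface of cells, from chains of Col6a1, Col6a2 and Col6a3. Col6a3 was at 781, 1312 and 1118 under αPD-1 alone and 1182, 982 and 962 under αPD-1 + corin (CPM). Col6a2 was at 763, 1262 and 1526 under αPD-1 alone and 836, 893 and 907 under αPD-1 + corin (CPM). Col6a1 was at 494, 937 and 1198 under αPD-1 alone and 736, 779 and 835 under αPD-1 + corin (CPM). In all 3 the groups overlapped, and αPD-1 replicate 1 was the lowest of the 6 samples. Their log2 fold changes were -0.07 ± 0.300, -0.44 ± 0.312 and -0.17 ± 0.331 (SE), with adjusted p from 0.402 to 0.912. For type IV collagen in these cells, Col4a1 was at 564, 1101 and 1012 under αPD-1 alone and 517, 1000.5 and 945 under αPD-1 + corin (CPM). Col4a2 was at 276, 624 and 491 under αPD-1 alone and 294, 499 and 553 under αPD-1 + corin (CPM), with log2 fold changes of -0.13 ± 0.359 and -0.06 ± 0.363. For both genes the groups overlapped and replicate 1 was the lowest sample of its group.

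Of the other chains, the FACIT gene Col14a1 was at 292, 359.9 and 445 under αPD-1 alone and 470.0, 279.8 and 462 under αPD-1 + corin (CPM), and its log2 fold change of 0.13 ± 0.297 did not pass. Col16a1, also a FACIT gene, was lower without overlap, at 197, 204 and 237 under αPD-1 alone and 154, 128 and 152 under αPD-1 + corin (CPM) and a log2 fold change of -0.57 ± 0.253 (adjusted p = 0.198). Col8a1, a hexagonal network collagen of vessel walls and cornea, was at 395, 437 and 973 under αPD-1 alone and 657, 446 and 267 under αPD-1 + corin (CPM), with the highest value in αPD-1 replicate 3. The multiplexins Col15a1 and Col18a1 bind vessel and muscle basement membranes. Col15a1 was at 289, 778 and 927 under αPD-1 alone and 323, 527 and 525 under αPD-1 + corin (CPM). Col18a1 was at 60.6, 122 and 119.8 under αPD-1 alone and 76.3, 111 and 136 under αPD-1 + corin (CPM). For these 3 genes the groups overlapped, and the log2 fold changes were -0.41 ± 0.381, -0.54 ± 0.395 and 0.09 ± 0.336.

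The other 24 collagen genes did not pass the filter on low counts. Of these, 2 (Col9a2 and Col22a1) had no UMI in fibroblast-like cells, which allows a level of up to 0.391 CPM over the 6 samples by counting error alone, 15 had 1 to 20 UMIs and 7 had more. Col8a2, the partner chain of Col8a1, was at 33.1, 13.2 and 123 under αPD-1 alone and 4.54, 1.56 and 0.876 under αPD-1 + corin (CPM) on 89 UMIs. Col11a1, a fibrillar chain of cartilage and of activated fibroblasts, was at 29.4, 13.2 and 97.0 under αPD-1 alone and 5.40, 0 and 2.63 under αPD-1 + corin (CPM) on 83 UMIs. In both genes every αPD-1 sample was above every αPD-1 + corin sample, and αPD-1 replicate 3 was far above the rest. Col23a1 was at 27.6, 60.9 and 8.56 under αPD-1 alone and 10.2, 7.82 and 6.13 under αPD-1 + corin (CPM) with overlap. Without the filter, 42 collagen genes were fitted and 5 passed, all lower (Col7a1, Col8a2, Col11a1, Col23a1 and Col27a1), beside 561 of 19520 genes in all. Col16a1 and Col24a1 in fibroblast-like cells and the genes low in counts are outside the set of genes always described and were named after their values had been seen.

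As shares of all UMIs of fibroblast-like cells, 2 classes of collagen did not overlap between the groups, and all other classes overlapped. FACIT genes made up 0.132, 0.115 and 0.173% under αPD-1 alone and 0.105, 0.0800 and 0.0994% under αPD-1 + corin, and transmembrane genes 0.00276, 0.00688 and 0.00371% against 0.00112, 0.000938 and 0.00114%. Both were lower with corin in every sample (exact permutation test, p = 0.1 each, the smallest possible and not adjusted over the classes). Among FACIT genes, Col12a1 averaged 815 CPM under αPD-1 alone and 393 CPM under αPD-1 + corin. Col16a1 was lower as well, and Col14a1 overlapped. The transmembrane shares rest on 15, 26 and 13 UMIs against 52, 6 and 13. Of these UMIs, 100 were of Col23a1, whose groups overlapped. Fibrillar genes made up 3.81, 3.72 and 3.91% against 4.06, 3.08 and 3.96%, with overlap (p = 1, exact).

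Ratios of chains within a sample do not depend on the total of that sample. The UMI ratio of Col1a2 to Col3a1 was 0.909, 0.909 and 0.894 under αPD-1 alone and 0.621, 0.653 and 0.700 under αPD-1 + corin. The spread within each group was small against the gap between them. The ratio of Col1a1 to Col3a1 was 2.14, 1.97 and 1.47 against 0.958, 0.939 and 1.46, with αPD-1 replicate 3 and αPD-1 + corin replicate 3 almost level. The ratio of Col6a2 to Col6a3 was 0.976, 0.962 and 1.36 against 0.707, 0.909 and 0.943. None of these 3 ratios overlapped between the groups (exact permutation test, p = 0.1 each, the smallest possible, and 0.233 adjusted over 7 pairs of chains, which were chosen after the levels were known).

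**Figure D5:**
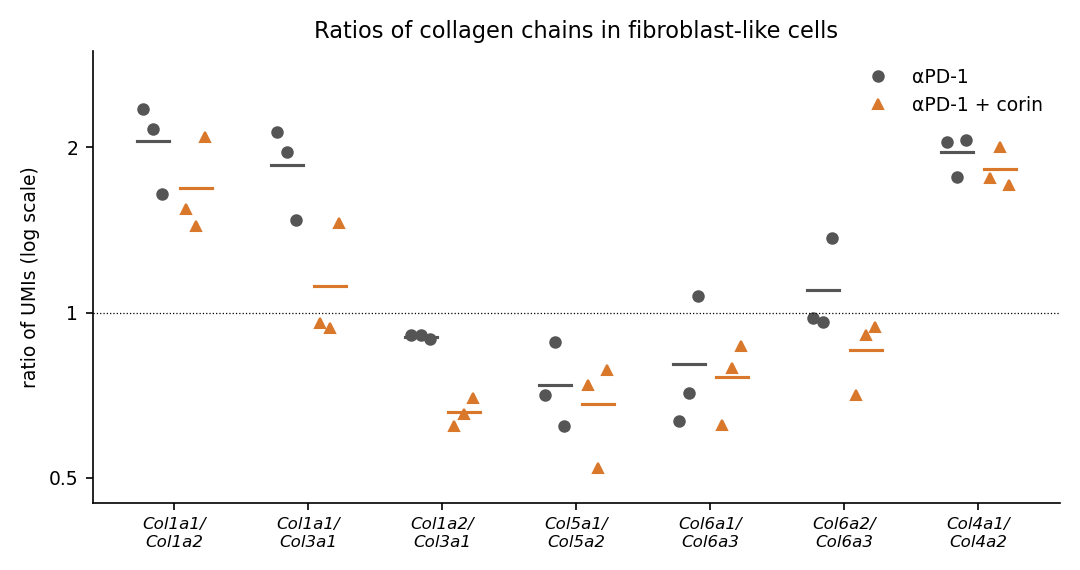
Ratio of UMIs of 7 pairs of collagen chains (log scale) in fibroblast-like cells, with 1 point per sample and a bar at the group mean (n = 3). Col1a2 to Col3a1 lies between 0.894 and 0.909 under αPD-1 alone and between 0.621 and 0.700 under αPD-1 + corin.

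In the other 4 pairs, each of chains of 1 collagen type, the groups overlapped. Col1a1 to Col1a2 was 2.35, 2.16 and 1.65 under αPD-1 alone and 1.54, 1.44 and 2.09 under αPD-1 + corin (exact permutation test, p = 0.2). Col5a1 to Col5a2 was 0.707, 0.883 and 0.621 against 0.739, 0.521 and 0.787 (exact, p = 0.7), and Col6a1 to Col6a3 was 0.633, 0.714 and 1.07 against 0.623, 0.793 and 0.868 (exact, p = 0.9). Col4a1 to Col4a2 was 1.71 to 2.06 over the 6 samples of fibroblast-like cells and 1.81 to 2.25 in endothelial-like cells, although the levels of both genes differed between these classes. In endothelial-like cells Col1a2 to Col3a1 was 1.11, 0.723 and 0.790 against 1.18, 1.69 and 1.05, with overlap (exact permutation test, p = 0.2) and the difference from fibroblast-like cells was not tested.

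Other genes of the fibroblast-like cells differed between the groups as well. The 14 fibroblast markers, none at 0, summed to 7290.0 to 12751 CPM under αPD-1 alone and 13833 to 14902 CPM under αPD-1 + corin. Of the 12 lists for other cell types, 4 did not overlap. The 11 macrophage markers (none at 0) summed to 146 to 228 and 349 to 503 CPM. Of these sums, Apoe alone gave 31.8 to 62.7 and 141 to 416 CPM, with 416 of 503 CPM in αPD-1 + corin replicate 3. The 9 monocyte markers (Fcnb at 0) summed to 1107 to 1689 and 2019.8 to 2432 CPM. In these sums Cebpb gave 471 to 809 and 477 to 645 CPM, and Vcan gave 237 to 339 and 242 to 574 CPM. Both overlapped between the groups, and Hp, given below, did not. The 7 B cell markers (none at 0) summed to 1345 to 1626 and 637 to 1157 CPM, of which Ebf1, also a gene of stromal cells, gave 1332 to 1609 and 629.9 to 1153. The 10 dendritic cell markers (none at 0) summed to 199.6 to 225 and 109 to 189.5 CPM. Melanoma markers overlapped, at 212 to 265 and 220.4 to 579.8 CPM, as did mural markers, at 217 to 285 and 263 to 653 CPM. The other 6 lists overlapped too, with Tie1 of endothelium, Ncr1 and Klra8 of NK cells, Tnfrsf17 of plasma cells and Cpa3, Ms4a2 and Fcer1a of mast cells at 0. Ptprc was at 44.1 to 62.7 and 18.8 to 34.2 CPM, without overlap. Among single genes of these lists, the groups did not overlap for Apoe (values above). Nor did they for Gpnmb of the melanoma list (10.6 to 31.4 and 47.3 to 119.5 CPM) and Hp of the monocyte list (34.4 to 307 and 381 to 476 CPM). The nuclear RNA Malat1 was at 10395 to 13879 CPM under αPD-1 alone and 4556, 9506 and 14541 CPM under αPD-1 + corin, with overlap. The median mitochondrial share per cell was 2.19, 2.91 and 2.25% against 1.22, 1.45 and 2.25%. The part of these lists, genes and measures in the collagen differences was not tested.

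In endothelial-like cells, with 22, 12 and 36 cells under αPD-1 alone and 50, 22 and 27 under αPD-1 + corin, 15 collagen genes were tested and none passed, beside 4 of 3419 genes in all (0.117%, as 0.0292% of all rose and 0.0877% fell, with 663 at an unadjusted p of 0.05 and none of the 15). DESeq2 also called none. The leading gene Col4a1 was at 4342, 3418 and 4037 under αPD-1 alone and 3437, 3807 and 3062 under αPD-1 + corin (CPM), with a log2 fold change of -0.18 ± 0.206 (SE, adjusted p = 0.676). Col4a2 was at 2149, 1522 and 2222 under αPD-1 alone and 1898, 1991 and 1362 under αPD-1 + corin (CPM), at -0.16 ± 0.232. Both overlapped between the groups. Col18a1 was at 751, 484 and 664 under αPD-1 alone and 559, 807 and 744 under αPD-1 + corin (CPM), at 0.14 ± 0.241. Col1a1, the third by level, was the most uneven, at 2664, 706 and 1296 under αPD-1 alone and 1456, 3079.5 and 412 under αPD-1 + corin (CPM) and a log2 fold change of 0.09 ± 0.524. The smallest adjusted p of the 15 was 0.373, for Col3a1 (log2 fold change -0.50 ± 0.302). The 15 genes had 6 log2 fold changes below 0 and 9 above it. The collagen share of UMIs overlapped between the groups (exact permutation test, p = 0.8), as did the share of endothelial-like cells (p = 0.8).

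Melanoma-like cells numbered 124, 84 and 165 under αPD-1 alone and 621, 316 and 572 under αPD-1 + corin, or 2.99% ± 0.776 against 9.34% ± 2.40 of the cells kept (SD, n = 3), without overlap (exact permutation test, p = 0.1, and 0.133 adjusted over 4 classes). Without the upper limit on genes per cell, their shares overlapped (p = 0.2, exact). Here 8 collagen genes were tested and none passed in edgeR or DESeq2, beside 0 of 9464 genes in all (0%, or 7 in DESeq2, with 675 at an unadjusted p of 0.05 and none of the 8). Col4a5 was at 21.4, 13.3 and 22.5 under αPD-1 alone and 22.3, 30.1 and 15.9 under αPD-1 + corin (CPM), at a log2 fold change of 0.16 ± 0.313. Col16a1 was at 22.7, 39.9 and 16.1 under αPD-1 alone and 23.3, 25.6 and 22.2 under αPD-1 + corin (CPM), at 0.01 ± 0.281. The largest difference was that of Col4a1, at 31.5, 21.3 and 23.6 under αPD-1 alone and 22.5, 19.3 and 9.06 under αPD-1 + corin (CPM) and -0.59 ± 0.354 (adjusted p = 0.723). All 8 overlapped between the groups. Type I and III chains were uneven across samples, with Col1a1 at 50.4 CPM in αPD-1 replicate 1 and Col3a1 at 31.6 CPM in αPD-1 + corin replicate 3.

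Macrophage-like cells numbered 910, 924 and 797 under αPD-1 alone and 4697, 1318 and 1410 under αPD-1 + corin, or 21.5% ± 3.42 against 41.0% ± 16.3 of the cells kept (SD, n = 3), without overlap (exact permutation test, p = 0.1). Without αPD-1 + corin replicate 1, the difference was 10.1 in place of 19.5 percentage points. In these cells 8 collagen genes were tested and none passed in edgeR or DESeq2, beside 19 of 11674 genes in all (0.163%, as 0.0771% of all rose and 0.0857% fell, with 2183 at an unadjusted p of 0.05 and none of the 8). Col1a1 was at 6.16, 11.4 and 2.42 under αPD-1 alone and 4.99, 2.48 and 5.45 under αPD-1 + corin (CPM), at a log2 fold change of -0.52 ± 0.477. Col3a1 was at 0.67 ± 0.631 and Col1a2 at -0.32 ± 0.590. All 8 overlapped between the groups.

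Whether the difference between groups itself varied between classes was tested in 1 edgeR fit over the 4 classes and 6 samples, with the sample as a block. None of the 26 collagen genes tested passed for melanoma-like, endothelial-like or macrophage-like against fibroblast-like cells, beside 0 (0%), 5 (0.0442%) and 10 (0.0883%) of 11319 genes in all. At an unadjusted p of 0.05, 1, 4 and 3 of the 26 passed. The share of all genes at that threshold was not counted, so these numbers have no background beside them. The log2 difference of Col27a1 from fibroblast-like cells was 2.06 ± 0.874 in macrophage-like cells (adjusted p = 0.435), 0.43 ± 0.816 in endothelial-like cells (adjusted p = 0.986) and 0.20 ± 1.15 in melanoma-like cells. That of Col12a1 was 1.18 ± 0.513 in endothelial-like cells (adjusted p = 0.628). The lower Col27a1 of fibroblast-like cells was not shown to be particular to them.

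Collagen chains are modified, folded, cut and crosslinked by a set of enzymes and chaperones, and they bind receptors and other matrix proteins. Of 62 such genes, 52 were tested in fibroblast-like cells and 1 passed in edgeR, Fmod, which fell, and 15 (28.8%) had an unadjusted p under 0.05. Of all genes tested in these cells, 2.18% passed and 23.3% had an unadjusted p under 0.05. Fmod encodes fibromodulin, a small proteoglycan that binds type I fibrils, and was at 33.1, 23.8 and 108 CPM under αPD-1 alone and 4.97, 3.13 and 4.38 CPM under αPD-1 + corin (log2 fold change -3.57 ± 0.526, adjusted p = 0.00849). As for Col8a2 and Col11a1, αPD-1 replicate 3 was far above the other samples. DESeq2 gave no adjusted p for Fmod. In contrast, the related proteoglycan gene Dcn was at 945, 897 and 1446 CPM under αPD-1 alone and 2154, 2781 and 3389 CPM under αPD-1 + corin, without overlap, and just missed the threshold (log2 fold change 1.34 ± 0.328, adjusted p = 0.0509). It passed with RLE size factors and in DESeq2. Dcn was also a marker used to name the cluster.

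By function, 18 of 20 genes of intracellular assembly were tested and none passed (5 at an unadjusted p of 0.05). Their median log2 fold change was 0.37, and 14 of the 18 were above 0, beside a median of -0.01 over all genes. Serpinh1, the chaperone of procollagen, was at 1145, 1077 and 1631 CPM under αPD-1 alone and 2966, 2201 and 1443 CPM under αPD-1 + corin, at a log2 fold change of 0.75 ± 0.326 (adjusted p = 0.188). P4ha3, a subunit of prolyl hydroxylase, lay the other way, at 99.2, 138 and 151 CPM under αPD-1 alone and 82.1, 32.8 and 53.4 CPM under αPD-1 + corin without overlap, and -1.17 ± 0.315 (adjusted p = 0.0658). Of processing and crosslinking enzymes, 9 of 12 were tested and none passed (1 at an unadjusted p of 0.05), with a median of 0.37. Loxl2, a lysyl oxidase that crosslinks collagen, was at 176, 204 and 291 CPM under αPD-1 alone and 616, 461 and 285 CPM under αPD-1 + corin (1.00 ± 0.322, adjusted p = 0.106). Of receptors and uptake genes, 6 of 10 were tested with a median of -0.26, and none passed (1 at an unadjusted p of 0.05). Of matrix partners, 19 of 20 were tested with a median of 0.36, and Fmod was the one that passed. Among the 19, 8 were at an unadjusted p of 0.05, the most of the 4 lists, beside 23.3% of all genes. Without αPD-1 + corin replicate 3, 9 of 52 tested genes of these lists (17.3%) passed, beside 927 of 7174 genes in all (12.9%). Of the 9, 8 were higher (Colgalt1, Dcn, Fn1, Lox, Loxl2, Mrc1, P4hb and Serpinh1). Of these, Mrc1 was also on the macrophage marker list. Its mean over the 6 samples was 820 CPM in macrophage-like cells and 10.7 CPM in fibroblast-like cells. In edgeR none of these genes passed in melanoma-like (37 tested, 4 at an unadjusted p of 0.05, beside 7.13% of all genes), endothelial-like (34 tested, 2, beside 19.4%) or macrophage-like cells (26 tested, 6, beside 18.7%). Dcn, P4ha3, Loxl2 and Serpinh1 were named after their values had been seen.

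By level, fibroblast-like cells were the highest of the 4 classes for 17 of the 20 assembly genes, 11 of the 12 processing genes, 11 of the 20 matrix partners and 4 of the 10 receptors. Among these genes, Lox, Pcolce, Dcn, Lum and Postn were also on the marker list for naming fibroblast-like cells. Outside the collagen family, the genes whose level was most like that of Col1a1 over the 24 sums of class and sample were Fbln2, of the matrix protein fibulin (Pearson's r = 0.984 of log2 (CPM + 1)), Fbn1, of the microfibril protein fibrillin (0.979), Postn, of the matrix protein periostin (0.979), Gas1 (0.971) and Snhg18 (0.970). Within the family, r was 0.994 for Col1a2 and 0.990 for Col3a1. These 24 points share 6 libraries and are not independent, since each class gave 6 of them. Fbln2 and Postn were on the same marker list, so their high level in fibroblast-like cells was part of the naming.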

How the data were processed

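The deposited matrices held raw UMI counts per gene for barcodes that the authors called as cells with Cell Ranger 8.0 (GRCm39, 10x 5′ libraries), without normalization. The gene limits (600 and 4000 per cell) and the 10% mitochondrial limit of the study were applied. In place of its DoubletFinder, Scrublet (scanpy 1.11.5) scored doublets. Its own threshold marked 0 barcodes, so the highest scores were removed at a rate of 0.4% per 1000 barcodes (2002, of which 1202 passed the other filters). Cells were clustered together after SCTransform (Seurat 5.3.0, sctransform 0.4.2; 3000 variable genes, 20 principal components, resolution 0.8). A marker counted for a cluster at 10% of cells and 1.5 times the other clusters, and a name needed 3. Sums of UMI counts over each class in each sample (72265 to 18034140 UMIs) were tested with edgeR 4.0.16 (TMM, filterByExpr, quasi-likelihood, adjusted p threshold 0.05), checked on simulated counts. For single values the test was a two-sided exact permutation test.

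Alternatives were RLE size factors, DESeq2 1.42.0, no filter on low counts, a replicate block, each sample left out, no limit of 4000 genes, a mitochondrial limit of 5%, no doublet removal, LogNormalize, collagen and marker genes kept, and resolutions 0.4 and 1.2. Genes always described were 16 set chains, those past the threshold and the 3 highest per class. The genes and lists were chosen with earlier results of these data known. Gene positions are from GENCODE vM39 (31674 identifiers of the gene list and all 44 collagen genes found). Tests that take cells as replicates were not used. R was version 4.3.3 and Python 3.11.15.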

Additional observations from a re-analysis of the deposited data

Results flagged for a closer look

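Barcodes with more than 4000 genes were left out of the 4 classes and entered only the shares over all deposited barcodes and the alternative without that limit. In those of them that passed the mitochondrial and doublet filters, collagen genes made up 0.0873, 0.157 and 0.0684% of UMIs under αPD-1 alone and 0.346, 0.202 and 0.0968% under αPD-1 + corin. The mean of the latter, 0.215%, was above every αPD-1 sample, but the groups overlapped (two-sided exact permutation test, p = 0.2). After these filters there were 1032, 833 and 1249 barcodes under αPD-1 alone and 1450, 1443 and 1611 under αPD-1 + corin. Groups of 3 samples were not searched for single outlying samples.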

How the results depend on the processing

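Of 560 values recomputed for 49 results, 484 did not change direction or call or, without a test, moved by less than 1 SD between replicates. In fibroblast-like cells, 1 of the 20 collagen genes tested was called. The number was 2 in DESeq2, 5 without the filter, 3 without the limit of 4000 genes and 2 with collagen and marker genes kept. With a sample left out it was 0 to 6. All such calls were lower. Calls over all genes were 275 (4.00% of those tested), 561 (2.87%), 35 (0.325%) and 167 (2.41%) under the same settings. With a sample left out they were 17 to 927 (0.224% to 12.9%), against 150 (2.18%). Collagen-handling genes called were 2 with RLE (3.85% of those tested, beside 2.19% of all genes) and 5 in DESeq2 (9.62%, beside 4.00%). They were 8 without the filter (12.9%, beside 2.87%) and 2 without the gene limit (3.45%, beside 0.325%). Under LogNormalize and with those genes kept they were 2 each (3.85%, beside 2.26% and 2.41%). With a sample left out they were 1 to 9 (1.85% to 17.3%), against 1 (1.92%). In endothelial-like cells 1 collagen gene (Col28a1) was called without the filter, and the fit was not run under LogNormalize or the 5% limit, where a sample had under 10 cells. Without the gene limit, 1 gene (Col11a1) passed the test between classes. Over all genes, calls in endothelial-like cells were 35 in DESeq2, 181 without the filter, 18 without doublet removal, 0 without the gene limit and 0 to 48 with a sample left out, against 4. In macrophage-like cells they were 267, 891, 5 and 12 under the same settings, 3 under LogNormalize, 10 with those genes kept, 11 and 38 at resolutions 0.4 and 1.2 and 0 to 2522 with a sample left out, against 19. In melanoma-like cells they were 7 in DESeq2, 103 without the filter, 4 without doublet removal, 3 under LogNormalize and 0 to 8 with a sample left out, against 0. The cause of these shifts was not tested.

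For values whose groups overlapped, some differences (αPD-1 + corin minus αPD-1) changed sign. For the collagen share of UMIs in melanoma-like cells they were 0.00151, 0.00181, 0.00135 and 0.0188 percentage points without the gene limit, at the 5% limit, without doublet removal and under LogNormalize, against -0.00258. In macrophage-like cells they were 4.14e-05, 0.00222, 0.000551 and 0.000337 in that order and 0.000373 with those genes kept, against -0.000494. The share of endothelial-like cells differed by -0.00535 without the gene limit and -0.0141 under LogNormalize. Col16a1 in melanoma-like cells was at -0.00352 in DESeq2 and -0.10 without the gene limit, and Col4a5 at -0.0800. With a sample left out, the collagen share differed by -0.292 to 0.126 in endothelial-like, -0.420 to 0.0505 in fibroblast-like, -0.00499 to 0.00120 in melanoma-like and -0.00115 to 0.000344 in macrophage-like cells, and the share of endothelial-like cells by -0.0808 to 0.173. Log2 fold changes in fibroblast-like cells ran -0.177 to 0.375 for Col18a1, -0.0975 to 0.0746 for Col1a2, -0.363 to 0.180 for Col4a1, -0.319 to 0.289 for Col4a2, -0.445 to 0.0982 for Col6a1, -0.240 to 0.174 for Col6a3 and -0.678 to 0.0949 for Col8a1. Elsewhere they ran -0.234 to 0.293 for Col16a1 and -0.00499 to 0.361 for Col4a5 in melanoma-like cells, -0.661 to 0.702 for Col1a1 and -0.313 to 0.0223 for Col4a2 in endothelial-like cells, and -0.871 to 0.123 for Col1a1, -0.947 to 0.535 for Col1a2 and -0.154 to 1.63 for Col3a1 in macrophage-like cells. Log2 ratios ran -0.235 to 0.0651 for Col5a1 to Col5a2 and -0.214 to 0.166 for Col6a1 to Col6a3.

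The samples of both groups carry numbers 1 to 3 that do not mark shared mice in the labels. In fibroblast-like cells the deviations of same-numbered samples correlated at 0.0342, −0.101 and −0.158. With a replicate block, Col27a1 was again the one collagen gene called in fibroblast-like cells (log2 fold change -1.44, adjusted p = 0.0266), calls over all genes were 157 there and 62 in endothelial-like cells, and Col1a1 in endothelial-like cells was at -0.22 in place of 0.09. Endothelial-like sums rest on 12 to 50 cells a sample. Settings for the test between classes, the levels, the ratios and the collagen-handling genes were chosen after seeing the data.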

Other observations

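The melanoma-like class was uneven in its collagen. In cluster 23, led by Chsy3, Ankfn1 and Sox6, the 44 genes summed to 222 to 407 CPM over the 6 samples. In cluster 14, led by Pmel, Ptgds and Syt4, they summed to 126 to 256 CPM. In cluster 15, led by Mlana, Ptgds and Chchd10, the range was 54.3 to 498 CPM, with the highest value in αPD-1 replicate 1, the sample with the highest Col1a1 of this class. Among macrophage-like clusters, cluster 0 had 30.3 to 126 CPM and was above cluster 1 (C1qa, Ms4a7 and C1qc lead) in every sample, and above cluster 7 (Lyve1, Fcna and Cbr2 lead) as well. The leading genes of cluster 0 were Camk1d, Gphn, Cmss1 and Lars2, none of which was a macrophage marker here.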
